A study of Rattus norvegicus with 28 samples.

Results

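Whole brains of 12 female rats of the inbred strain BN-Lx/Cub were compared by total RNA sequencing, with 4 libraries for each of the stages pre-estrus, estrus and post-estrus. They are all the BN-Lx females among 28 libraries; the other 16 were 2 BN-Lx males and 14 SHR/OlaIpcv rats, of which 12 were females at the same 3 stages. The 12 libraries were fitted alone as 3 stages, once with the abundance of 2 very abundant RNAs as covariates and once without. No treatment is named, ages are not given, and the labels call the libraries of a stage biological replicates. Male rats are mentioned in the extraction protocol, but every sample used here is labelled female, and that label was followed.

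The estrous cycle of the rat runs over a few days, with estradiol rising towards proestrus and progesterone following around ovulation. Both steroids enter the brain and act through nuclear receptors that regulate transcription in hypothalamus, hippocampus and other regions. A whole brain averages all regions and cell types, so in these libraries fewer cells of a type and less RNA per cell cannot be told apart.

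The deposited counts carry Ensembl gene identifiers without gene names, and 0 of the 32623 identifiers could be matched to a symbol. The text uses identifiers throughout, at most 2 higher and 2 lower per comparison, and what they encode is not stated. For the same reason the labelled tissue could not be checked against marker genes, and 31 lists of steroid, neuronal and glial genes (408 entries) could not be looked up.

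Gene counts summed to between 42446717 (post-estrus 6) and 87923727 (post-estrus 4) per library, with a median of 60922630. Between 16607 and 20192 genes were detected per library. The sample descriptions end in b35 for 5 libraries (pre-estrus 3 and 7a, estrus 8 and 9, post-estrus 5) and in b37 for the other 7. What the suffix stands for is not stated. ENSRNOG00000032348, a gene of 330 bases, had between 918 and 1478 counts in the b35 libraries and 0 in all 7 b37 libraries, and it followed the suffix in the same way in the other 16 libraries. ENSRNOG00000046546, of 1395 bases, had 10 to 78 counts in the b37 libraries and 0 in the b35 libraries, but did not follow the suffix in the other 16.

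Library post-estrus 5 stood apart. It had the fewest detected genes (16607), and 173 genes were lower in it than in every other library by more than 2-fold. It lay at -110 on the first principal component of log2 CPM, where the other 11 lay between -34.8 and 41.7. CPM are counts per 1e6 gene counts, scaled by TMM factors unless stated otherwise. That component held 31.4% of the variance. Stage counts with the shares are therefore also given without it. The genes that followed either share alone, the scatter between libraries and the trend with gene length are given with all 12 libraries only.

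The 2 RNAs used as covariates made up a large part of every library. ENSRNOG00000043866, of 1571 bases, was the most abundant gene, and ENSRNOG00000058083, of 300 bases, ranked 3 and shares its counts with an identical row of the same length. ENSRNOG00000043866 took 33.7, 26.7, 34.7 and 27.7% of the gene counts at pre-estrus (libraries 3, 5, 7a and 7b). It took 34.1, 25.8, 22.3 and 19.7% at estrus (2, 4, 8 and 9), and 26.7, 22.5, 35.9 and 33.8% at post-estrus (3, 4, 5 and 6). The 3 stages overlapped. ENSRNOG00000058083 took 1.73, 4.19, 2.57 and 3.56% at pre-estrus, 1.76, 4.56, 4.95 and 7.16% at estrus, and 6.13, 7.21, 2.09 and 2.96% at post-estrus, again with overlapping stages.

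No stage difference in either share passed a two-sided exact permutation test of the log2 shares. For ENSRNOG00000043866 the log2 difference was -0.29 between estrus and pre-estrus (exact p = 0.171), 0.23 between post-estrus and estrus (exact p = 0.314) and -0.06 between post-estrus and pre-estrus (exact p = 0.80). For ENSRNOG00000058083 the differences were 0.52, -0.01 and 0.51 (exact p = 0.314, 1 and 0.343). Adjusted over the 6 comparisons, the exact p-values were 0.514 to 1, where 70 regroupings of 4 against 4 allow no p under 0.0286. Stage held 19.8% of the variance of the first log2 share and 11.8% of the second.

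**Figure D1:**
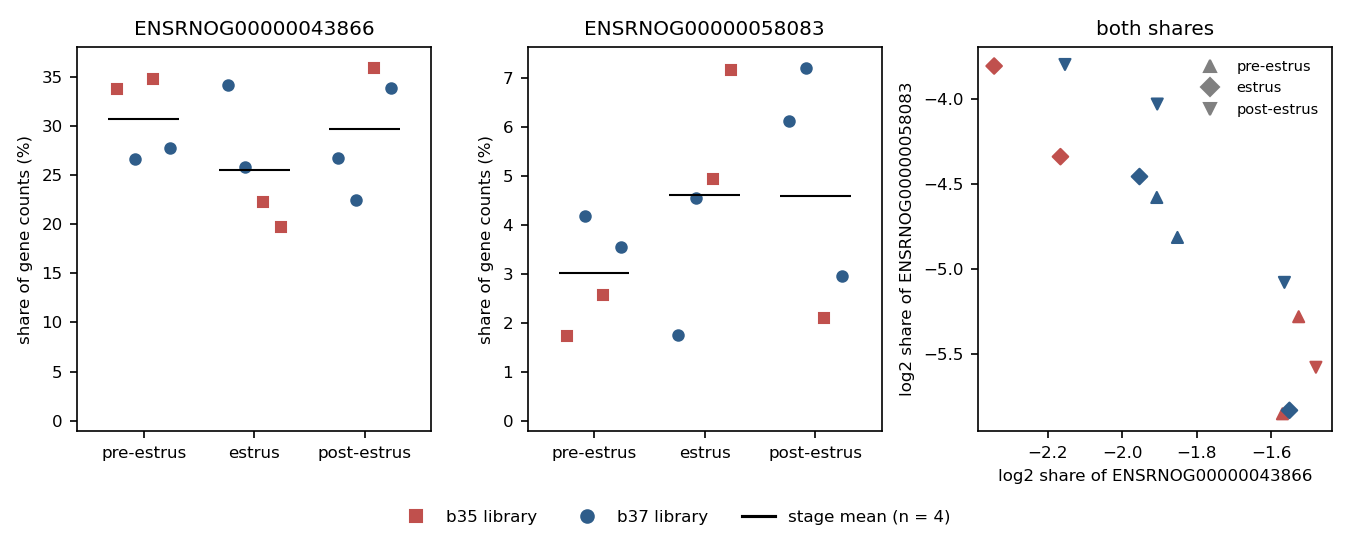
Share of ENSRNOG00000043866 (left) and of ENSRNOG00000058083 (middle) in the gene counts of each library, in percent, by stage, and the log2 shares of both against each other (right); red is b35 and blue b37, bars are stage means of 4 libraries, and in the right panel the symbol shape gives the stage. The stages overlap in both shares, and libraries high in one share are low in the other.

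The shares ran opposite to each other. Across the 12 libraries their logs had a Pearson r of -0.906 (permutation p = 7e-05) and a Spearman rho of -0.839 (permutation p = 0.00119), adjusted over 3 relations 0.00021 and 0.00119. Both are parts of the same gene count total, which these permutations do not allow for, and a correlation of counts per spike-in count was not computed. Pearson's r was -0.879 without the 2 libraries farthest from the median (estrus 9 and post-estrus 5) and -0.902 among the 7 b37 libraries, while the 5 b35 libraries were too few for a value. ENSRNOG00000043866's share also ran against the first principal component of all genes, with a Pearson r of -0.817 (permutation p = 0.00080) and a Spearman rho of -0.867 (permutation p = 0.00055), and with r = -0.897 without the same 2 libraries and -0.902 within b37. With both shares in one fit, the variance of their own coefficients was inflated 13.9 and 12.6 times. That of the stage terms, estrus and post-estrus each against pre-estrus, was inflated 1.41 and 1.53 times.

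The suffix and the shares were unevenly spread over the stages. Among b35 libraries ENSRNOG00000043866 took 33.7 and 34.7% at pre-estrus and 22.3 and 19.7% at estrus, so that share and stage cannot be told apart there. Among b37 libraries it took 26.7 and 27.7% at pre-estrus and 34.1 and 25.8% at estrus. The mean at estrus was thus lower than at pre-estrus in b35 and higher in b37.

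The comparison of estrus with pre-estrus addressed whether brain RNA levels differ between these stages in this strain. No gene was called among 16880 tested with both shares as covariates (edgeR's quasi-likelihood test, Benjamini-Hochberg adjusted p under 0.05; percent called 0), and 293 (1.74%) had an unadjusted p under 0.05, 151 higher and 142 lower at estrus. Without covariates no gene was called either, and 234 (1.39%) had an unadjusted p under 0.05. DESeq2 called 3 genes with the shares (0.0178%) and 2 without (0.0118%), and limma 0 in both. The smallest edgeR adjusted p was 1 with the shares and 0.974 without.

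Of the 4 genes named for this comparison, only ENSRNOG00000053047, of 5513 bases, had estrus and pre-estrus values that did not overlap. Over all 16880 genes, 322 (1.91%) had such values. It had 2.63, 2.11, 2.57 and 2.11 CPM at pre-estrus, 1.16, 0.997, 0.818 and 0.982 CPM at estrus, and 1.70, 1.39, 2.30 and 1.77 CPM at post-estrus. Its estrus libraries lay below all 8 others, in b35 and b37 alike. Estrus was lower than pre-estrus by a log2 fold change of -1.08 ± 0.26 with the shares (SE, edgeR unadjusted p = 0.000884, adjusted p = 1) and of -1.25 ± 0.23 without them (unadjusted p = 0.000112, adjusted p = 0.974). Leaving out each library in turn gave values from -1.12 to -1.01 with the shares. These depths were low, with 54 to 144 counts per library.

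ENSRNOG00000050193, of 3383 bases, also had a lower fitted level at estrus, with an unadjusted p under 0.05 with the shares and not without them. Its libraries overlapped, at 4.16 to 7.40 CPM at pre-estrus and 2.31 to 6.65 CPM at estrus. The log2 fold change was -0.94 ± 0.21 with the shares (SE, edgeR unadjusted p = 0.000524, adjusted p = 1) and -0.43 ± 0.43 without. Its log2 level moved by -2.21 ± 0.36 (SE) per unit of log2 share when ENSRNOG00000043866 was the only share fitted. With both shares in the fit that slope was 0.07 (edgeR adjusted p = 0.991), and the slope on ENSRNOG00000058083 was 0.91 (edgeR adjusted p = 0.274).

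In the other direction the smallest p-values among genes of at least 1 CPM belonged to ENSRNOG00000026260 and ENSRNOG00000013304. ENSRNOG00000026260 had 76.8 to 99.7 CPM at pre-estrus and 73.3 to 101 CPM at estrus, overlapping almost entirely. Its log2 fold change was 0.28 ± 0.09 with the shares (SE, edgeR unadjusted p = 0.00595) and 0.08 ± 0.13 without. ENSRNOG00000013304 had 2.74 to 5.65 CPM and 3.66 to 8.07 CPM, and its log2 fold change was 0.79 ± 0.25 with the shares (SE, edgeR unadjusted p = 0.00692) and 0.41 ± 0.29 without. Neither passed the adjusted threshold.

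The comparison without covariates depended on which libraries were used. Among the 5 b35 libraries 3917 of 17751 genes (22.1%) were called between estrus and pre-estrus by edgeR, with 2 residual degrees of freedom and shares that did not overlap. Among the 7 b37 libraries 0 of 17212 were called and 364 (2.11%) had an unadjusted p under 0.05. Without library estrus 2, the estrus library with the highest share of ENSRNOG00000043866, 1672 genes had an unadjusted p under 0.05 in the fit without covariates and 118 in the fit with them, a count that was 801 without post-estrus 4. Without estrus 2, in both fits the number of genes called was at most 2. Without post-estrus 5, with the shares, 0 of 17072 genes were called and 375 had an unadjusted p under 0.05.

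Post-estrus against estrus gave no call in either fit (edgeR, 0% of 16880). With the shares, 860 genes (5.09%) had an unadjusted p under 0.05, 353 higher and 507 lower at post-estrus, and without them 100 (0.592%). DESeq2 called 11 genes with the shares (0.0652%) and 2 without (0.0118%), and limma 0 in both. Without library post-estrus 5 the count at an unadjusted p under 0.05 was 539 (3.16%) with the shares and 77 (0.451%) without, and without estrus 2 it was 539 and 670. Without pre-estrus 7a it was 2061 with the shares and 105 without.

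Among genes of a mean of at least 1 CPM, ENSRNOG00000045729, of 1352 bases, had the smallest p of those higher at post-estrus. It had 0.887, 0.216, 1.14 and 0.458 CPM at estrus and 0.816, 0.963, 3.31 and 1.30 CPM at post-estrus, with its highest value in post-estrus 5. The groups overlapped. The log2 fold change was 2.99 ± 0.59 with the shares (SE, edgeR unadjusted p = 0.00017, adjusted p = 0.886) and 1.24 ± 0.66 without. It was 0.60 without covariates once post-estrus 5 was left out. ENSRNOG00000009269, below 1 CPM, had a smaller p with the shares (edgeR unadjusted p = 0.000113), at a log2 difference of 6.44 ± 1.22 (SE). Its log2 difference was -3.69 ± 1.48 without covariates, and its mean was 1.29 CPM at estrus and 0.0938 CPM at post-estrus.

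ENSRNOG00000046794, an abundant gene of 2622 bases, differed little in its measured level. It had 40.5 to 51.3 CPM at estrus and 44.1 to 63.9 CPM at post-estrus, with overlapping groups. Its fitted log2 difference was 0.54 ± 0.12 with the shares (SE, edgeR unadjusted p = 0.000454, adjusted p = 0.886) and 0.15 ± 0.15 without.

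Lower at post-estrus by the smallest p-values among genes of at least 1 CPM were ENSRNOG00000049504 and ENSRNOG00000024818. ENSRNOG00000049504, of 5115 bases, had 119, 39.3, 19.0 and 18.0 CPM at estrus and 39.9, 15.0, 73.6 and 76.6 CPM at post-estrus. Its 5 highest values among the 12, 73.6 CPM and above, were in the 5 libraries richest in ENSRNOG00000043866 (pre-estrus 3 and 7a, estrus 2, post-estrus 5 and 6), and its slope against that share alone was 3.49 ± 0.25 (SE, edgeR adjusted p = 5.7e-06). The log2 difference from estrus was -0.96 ± 0.19 with the shares (SE, edgeR unadjusted p = 0.000195, adjusted p = 0.886) and 0.07 ± 0.66 without, a turn of sign. ENSRNOG00000024818, of 1077 bases, had 0.653 to 1.99 CPM at estrus and 0.139 to 2.02 CPM at post-estrus, and its log2 difference was -2.33 ± 0.52 with the shares (SE, edgeR unadjusted p = 0.000486, adjusted p = 0.886) and -0.45 ± 0.66 without.

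Between post-estrus and pre-estrus, with the shares, 1 of 16880 genes was called by edgeR (0.00592%), and 1779 (10.5%) had an unadjusted p under 0.05, 648 higher and 1131 lower at post-estrus. Without covariates 0 genes were called and 315 (1.87%) had an unadjusted p under 0.05. DESeq2 called 75 genes with the shares (0.444%) and 3 without (0.0178%), and limma called 0 in both. Without post-estrus 5 no gene was called in either fit, and 941 of 17072 (5.51%) with the shares and 376 (2.2%) without had an unadjusted p under 0.05. With the shares and without pre-estrus 7a 116 of 17100 (0.678%) were called, and 2967 had an unadjusted p under 0.05. The number of edgeR calls thus ran from 0 to 116 with 1 library left out.

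The called gene, ENSRNOG00000009269, of 669 bases, had almost no counts at either stage compared. Its counts were 9, 0, 0 and 1 at pre-estrus and 0, 13, 13 and 0 at post-estrus, or 0.0519 ± 0.0942 and 0.0938 ± 0.113 CPM (SD, n = 4 each). At estrus it had 30, 0, 194 and 105 counts, the highest values in the b35 libraries estrus 8 and 9, which had the lowest shares of ENSRNOG00000043866. The fit with both shares gave a log2 difference of 8.71 ± 1.12 between post-estrus and pre-estrus (SE, edgeR adjusted p = 0.0309), a fitted value set beside measured means that overlap, and not a measured fold. The fit without covariates gave 0.98 ± 1.61 (edgeR adjusted p = 0.999). DESeq2 called the gene with both shares (adjusted p = 0.000524) and not without (adjusted p = 1).

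The call was lost with either share alone and also under other settings that kept both. The log2 level of ENSRNOG00000009269 moved by -47.9 per unit of log2 share of ENSRNOG00000043866 and by -18.0 per unit of the other in the joint fit, and by -0.86 ± 2.71 and -0.26 ± 0.99 (SE) when each was fitted alone. With ENSRNOG00000043866 as the only share the log2 difference was 0.90 (edgeR adjusted p = 0.969), and with ENSRNOG00000058083 as the only share 1.17 (adjusted p = 0.875). With both shares and a term for the suffix the adjusted p was 0.0759, with both shares and the description number as a block it was 1, and with limma it was 0.174. Leaving out each library in turn kept the call in 5 of 12 fits, with adjusted p from 0.0201 to 0.329. The gene was named for its call, below the level of 1 CPM that the naming rule asks for.

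ENSRNOG00000045729, described above, had the smallest p among genes of at least 1 CPM that were higher at post-estrus. It had 1.78, 0.377, 0.375 and 0.513 CPM at pre-estrus, so that pre-estrus 3 overlapped with post-estrus and the other 3 lay below it. The log2 fold change was 2.58 ± 0.45 with the shares (SE, edgeR unadjusted p = 4.7e-05, adjusted p = 0.326) and 1.07 ± 0.66 without. With 1 library left out, the value without covariates ran from 0.43 (without post-estrus 5) to 1.91 (without pre-estrus 3), and with the shares the gene was called without pre-estrus 7a (edgeR adjusted p = 0.0424).

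ENSRNOG00000020557, a long gene of 13865 bases, had a lower fitted level at post-estrus in both fits. It had 6.06, 8.83, 8.74 and 8.50 CPM at pre-estrus, 5.74, 6.18, 5.77 and 7.58 CPM at estrus, and 6.38, 5.37, 4.18 and 5.37 CPM at post-estrus. Only pre-estrus 3 reached into the post-estrus range. Post-estrus was lower than pre-estrus by a log2 fold change of -0.87 ± 0.16 with the shares (SE, edgeR unadjusted p = 8.3e-05, adjusted p = 0.326) and of -0.59 ± 0.18 without (unadjusted p = 0.00578, adjusted p = 0.999). ENSRNOG00000049504 had 86.1, 49.2, 131 and 53.6 CPM at pre-estrus, overlapping with post-estrus, and log2 differences of -0.82 ± 0.15 with the shares (SE, edgeR adjusted p = 0.326) and -0.64 ± 0.66 without.

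**Figure D2:**
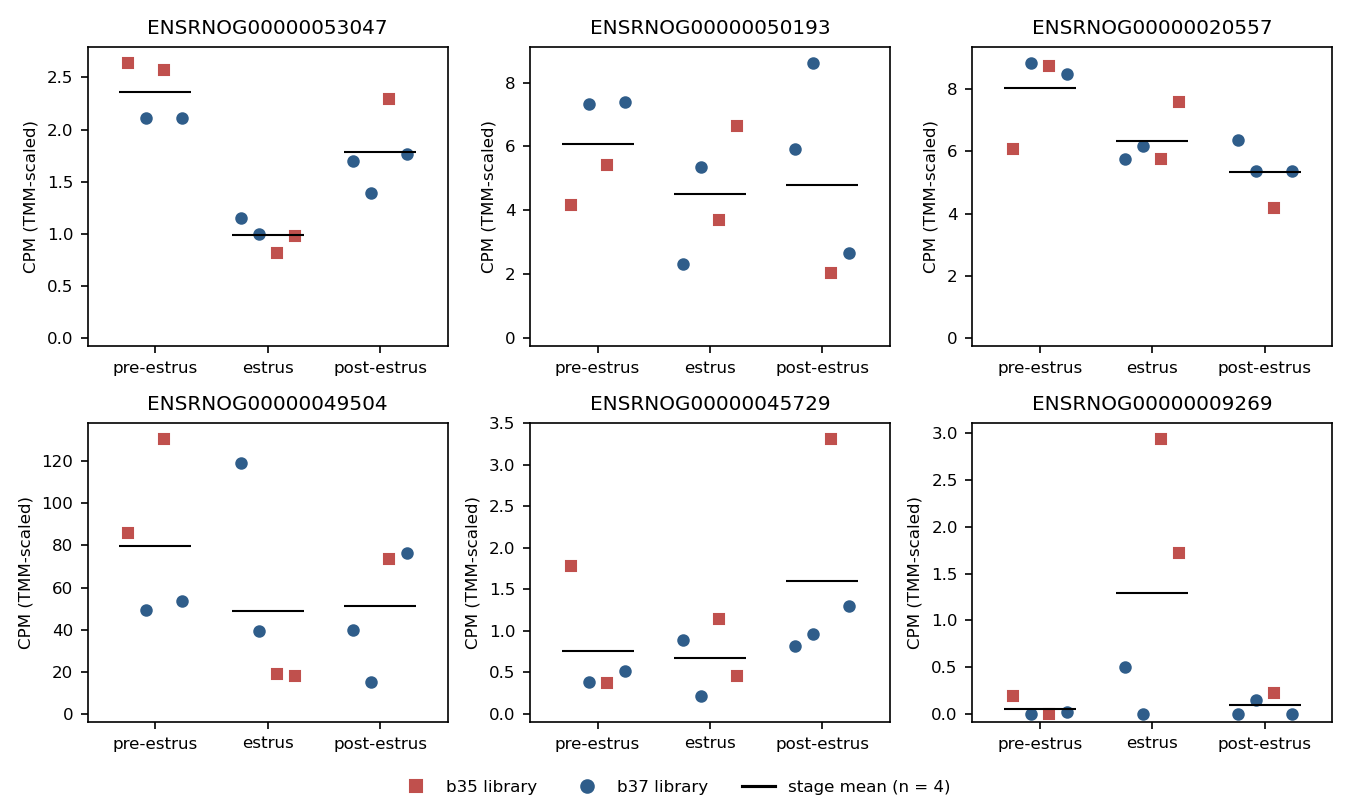
CPM, scaled by TMM factors, of 6 named genes in each of the 12 libraries by stage; red squares and blue circles are b35 and b37 libraries and bars are means of 4 libraries. The estrus libraries of ENSRNOG00000053047 lie below all others, and ENSRNOG00000009269 is near 0 at pre-estrus and post-estrus.

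One further gene was singled out after its values were seen, since it was near absent from 1 stage. ENSRNOG00000046051, of 1858 bases, had 2190, 774, 197 and 596 counts at pre-estrus, 562, 1012, 692 and 0 at estrus, and 0, 0, 0 and 2 at post-estrus. Only estrus 9 joined the post-estrus libraries. Summed over 4 libraries and without TMM scaling, pre-estrus had 17.1 CPM and post-estrus 0.00791 CPM. The ratio was 2160 with a 95% exact counting interval of 598 to 17844, which covers counting error only. edgeR did not call it with the shares (adjusted p = 0.423) or without (adjusted p = 0.999), while DESeq2 did (adjusted p = 0.0118 and 4.2e-05).

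The absence of ENSRNOG00000046051 did not follow the stages outside these rats. In SHR females it ran from 0.0843 to 11.5 CPM at pre-estrus, from 0 to 10.4 CPM at estrus and from 0 to 38.2 CPM at post-estrus, in a scaling over all 28 libraries. In the 2 BN-Lx males it had 0.619 and 3.64 CPM. The SHR difference between post-estrus and pre-estrus was 1.72 ± 2.68 on the log2 scale with the shares (SE, edgeR adjusted p = 1), opposite in sign to that in BN-Lx.

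Over all 3 stages at once, no gene was called for any stage difference in either fit (edgeR, 0%). The smallest adjusted p was 0.126 with the shares, again for ENSRNOG00000009269, and 923 genes (5.47%) had an unadjusted p under 0.05, against 157 (0.93%) without covariates. With 1 library left out these ran from 506 (without post-estrus 5) to 1967 (without pre-estrus 7a) with the shares, and from 95 (without pre-estrus 7a) to 651 (without estrus 2) without. DESeq2 called 14 (0.0829%) and 1 (0.00592%), limma 0 and 0. Without pre-estrus 7a, edgeR called 1 gene with the shares (0.00585%). With b37 libraries alone and both shares, on 2 residual degrees of freedom, edgeR called 18 genes of 17212 (0.105%) over all stages. It called 6 (0.0349%) between estrus and pre-estrus, 11 (0.0639%) between post-estrus and estrus, and 15 (0.0871%) between post-estrus and pre-estrus. Without covariates the b37 counts were 1, 0, 1 and 1 (0.00581% where 1). Both shares could not be fitted in the 5 b35 libraries, where the fit without covariates called 4087 genes (23%) over all stages, 3489 (19.7%) between post-estrus and estrus and 114 (0.642%) between post-estrus and pre-estrus. The post-estrus arm there is 1 library, post-estrus 5, which stood apart and is assumed in that fit to vary like the other stages, so these counts compare that library and not the stage.

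Adding the shares lowered the scatter between libraries of a stage. The biological coefficient of variation, edgeR's measure of that scatter, was 0.335 without covariates, 0.260 and 0.257 with ENSRNOG00000043866 or ENSRNOG00000058083 alone, and 0.243 with both. With 1 share in the fit no gene was called for any stage comparison (edgeR), and 480 genes (2.84%) over all stages, 407 (2.41%) between estrus and pre-estrus, 557 (3.3%) between post-estrus and estrus and 824 (4.88%) between post-estrus and pre-estrus had an unadjusted p under 0.05 with ENSRNOG00000043866. With ENSRNOG00000058083 these were 699 (4.14%), 313 (1.85%), 515 (3.05%) and 1328 (7.87%). The gain in precision was uneven. Over 13959 genes of at least 1 CPM, the median standard error of the log2 difference fell from 0.202 to 0.152 for estrus against pre-estrus and to 0.159 for post-estrus against pre-estrus, but was 0.202 in both fits for post-estrus against estrus. The 95% interval lay within a 2-fold change for 91.5, 84.9 and 78.4% of these genes in that order with the shares. Without covariates it did for 84.7, 86.8 and 88.5%. With ENSRNOG00000043866 or ENSRNOG00000058083 alone, the median standard error for post-estrus against estrus was 0.146 or 0.134. The interval then lay within 2-fold for 91.6 or 92.9% of the genes.

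The 2 fits ranked different genes. Of the genes with an unadjusted p under 0.05, 54 were shared for estrus against pre-estrus (18.4% of those with the shares and 23.1% of those without), 26 between post-estrus and estrus (3.02% and 26%) and 201 between post-estrus and pre-estrus (11.3% and 63.8%). All of the shared genes had the same sign in both fits except 1 for post-estrus against estrus. Over all 16880 genes the sign differed between the fits for 39.3, 33.9 and 28.4% in that order. The median change of the fitted log2 difference was 0.17, 0.17 and 0.14.

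**Figure D3:**
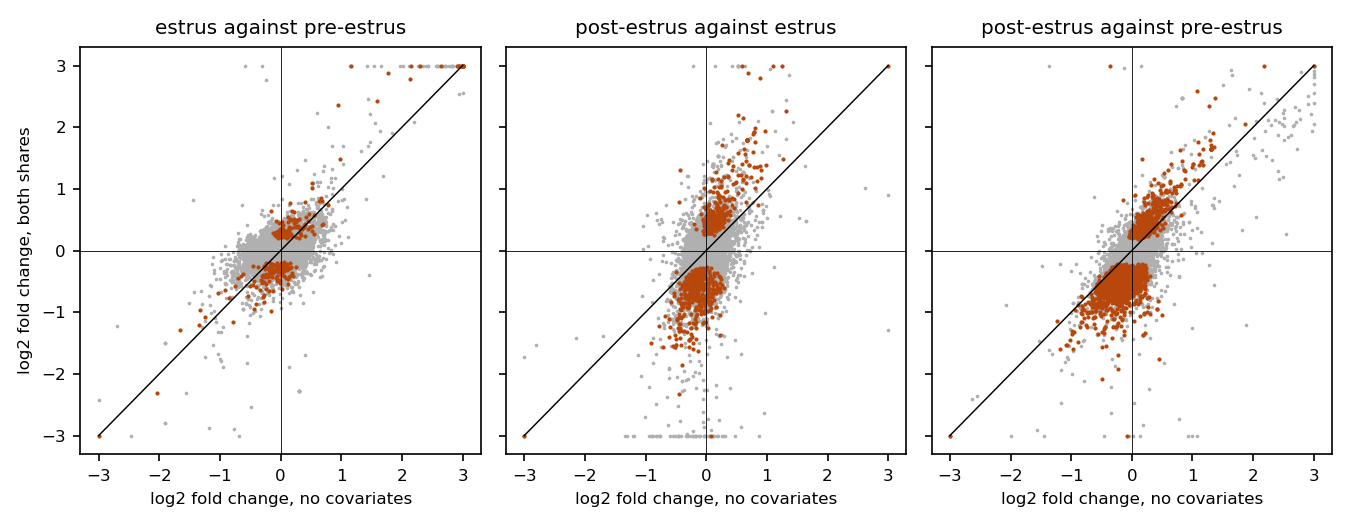
Log2 fold change of each of 13959 genes of at least 1 CPM with both shares as covariates (vertical) against that without covariates (horizontal) for the 3 stage comparisons; points beyond 3 are drawn at 3, orange points have an unadjusted p under 0.05 with the shares, and the diagonal marks equal values. In the post-estrus panels many orange points lie away from 0 vertically while near 0 horizontally.

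The distribution of p-values differed as well. Without covariates fewer genes than an equal spread would give (844 per bin of 0.05) fell under 0.05 in every comparison. With the shares the lowest bin held 293, 860 and 1779 genes for the 3 comparisons. The count for post-estrus against pre-estrus exceeded an equal spread, but it was 941 without post-estrus 5, and that for post-estrus against estrus was 2061 without pre-estrus 7a.

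**Figure D4:**
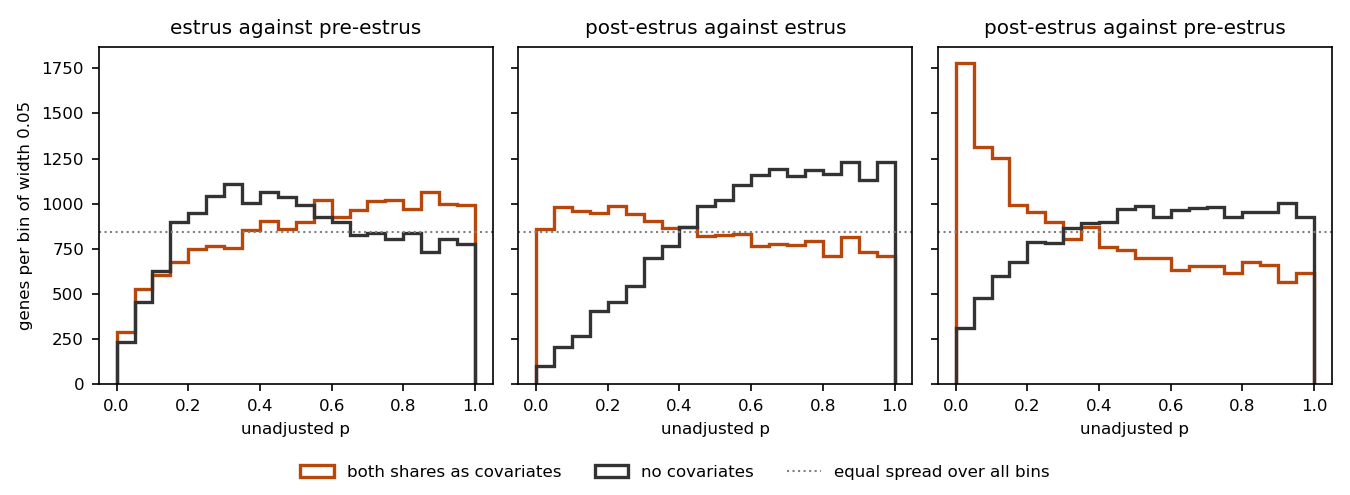
Number of genes per bin of 0.05 of the unadjusted p of 16880 genes, with both shares (orange) and without covariates (black), for the 3 stage comparisons; the dotted line is an equal spread of 844 genes per bin. For post-estrus against pre-estrus the lowest bin holds 1779 genes with the shares and 315 without.

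Measured levels without any fit separated the stages for few genes. The CPM values of all 4 libraries of one stage lay beyond all 4 of the other for 322 genes between estrus and pre-estrus (1.91%), for 85 between post-estrus and estrus (0.504%) and for 235 between post-estrus and pre-estrus (1.39%). Of these, 39, 19 and 105 also had an unadjusted p under 0.05 with the shares.

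Much more of the transcriptome followed the shares than the stages. With stage and the share of ENSRNOG00000043866 in the fit, 7306 of 16877 genes (43.3%) were called for the share by edgeR, 3749 higher and 3557 lower where the share was higher. With ENSRNOG00000058083 in its place, 7773 (46.1%) were called, 3835 higher and 3938 lower. Of these genes 6977 were called in both, 95.5% of the first list and 89.8% of the second, all with opposite signs. With both shares in one fit only 4 (0.0237%) and 2 (0.0119%) were called, and DESeq2 called 182 (1.08%) and 564 (3.34%) there. The shares come from the same counts as the genes tested, and the 2 RNAs and the identical row were left out.

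The slopes were large for some genes. ENSRNOG00000060832, of 1113 bases, had 26.6, 10.6, 25.5 and 13.2 CPM at pre-estrus, 24.6, 8.80, 5.65 and 3.49 CPM at estrus, and 8.25, 3.64, 15.2 and 15.6 CPM at post-estrus. The 5 libraries richest in ENSRNOG00000043866 lay at 15.2 CPM or above and the other 7 at 13.2 CPM or below. Its log2 level rose by 3.33 ± 0.20 per unit of log2 share (SE, edgeR adjusted p = 1.2e-06). ENSRNOG00000047877, of 1074 bases, rose by 3.87 ± 0.26 (edgeR adjusted p = 3.1e-06), from 4.40 CPM in post-estrus 4 to 42.9 CPM in estrus 2.

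In the opposite direction, ENSRNOG00000003897, of 5825 bases, had a slope of -2.07 ± 0.19 (SE, edgeR adjusted p = 8.3e-06), with 7.62 CPM in estrus 2 and 25.8 CPM in estrus 9. ENSRNOG00000015380, of 3509 bases, had a slope of -1.88 ± 0.17 (edgeR adjusted p = 9e-06), with 15.7 and 47.8 CPM in the same libraries. Both genes thus ran over more than a 3-fold range among libraries of 1 stage.

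Per unit of log2 share of ENSRNOG00000058083, and among genes of at least 1 CPM, the smallest p-values among positive slopes belonged to 2 short RNAs. ENSRNOG00000058555, of 331 bases and with 9882 to 23606 CPM, had a slope of 0.59 ± 0.04 (SE, edgeR adjusted p = 2.3e-06). ENSRNOG00000051891, of 312 bases, ran from 2.16 CPM in estrus 2 to 17.5 CPM in estrus 9 (edgeR adjusted p = 6.1e-06). Among negative slopes they belonged to ENSRNOG00000009300, of 3855 bases, with a slope of -0.65 ± 0.06, and to ENSRNOG00000000161, of 3075 bases, with one of -0.61 ± 0.06 (both edgeR adjusted p = 7.9e-06).

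The direction of the slope went with gene length. With ENSRNOG00000043866 as the only share, the median slope was -0.06 for 1625 genes of 500 to 1000 bases, -0.07 for 5324 genes of 1000 to 2000 bases, -0.01 for 6283 genes of 2000 to 4000 bases, 0.21 for 2497 genes of 4000 to 8000 bases and 0.48 for 247 genes over 8000 bases. Genes called higher with the share made up 14.5% of the first of these classes and 45.3% of the last, and genes called lower 19.6 and 19.8%. Of 256 genes up to 200 bases, 1.17% were called higher and 4.30% lower. The longer classes were also more abundant, with medians of 3.10 CPM in the first and 59.8 CPM in the last.

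**Figure D5:**
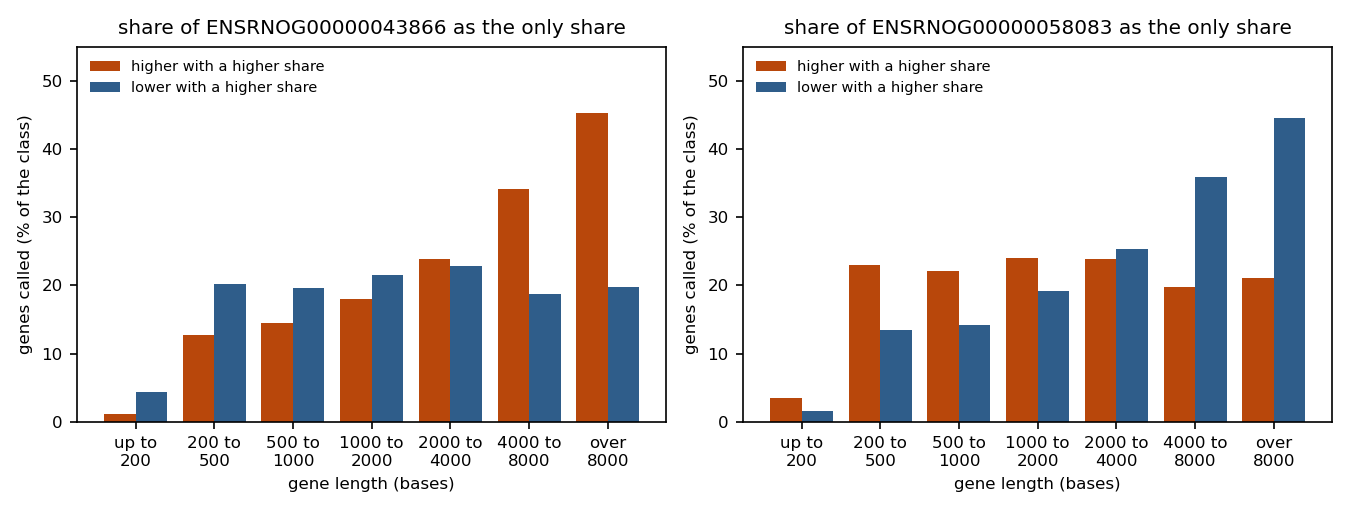
Percentage of genes of each length class, in bases, called higher (orange) or lower (blue) with a higher share, with ENSRNOG00000043866 (left) or ENSRNOG00000058083 (right) as the only share fitted with stage. On the left the orange bars climb from 1.17% in the shortest class to 45.3% over 8000 bases, and on the right the blue bars reach 44.5%.

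Genes with small stage p-values after adjustment were not set apart by length for post-estrus against estrus, where those higher and lower had median lengths of 2034 and 2055 bases, beside 2119 over all genes. For estrus against pre-estrus the medians were 1575 bases for higher and 3031 for lower genes, and for post-estrus against pre-estrus 1760 and 2421. Genes that followed the share of ENSRNOG00000043866 made up 48.8, 40.1 and 50.3% of those with an unadjusted p under 0.05 in the 3 comparisons with the shares, beside 43.3% over all genes, and 25.6, 10 and 9.84% of those without.

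A block of genes marked 2 libraries irrespective of their stage. In estrus 2 and post-estrus 3, 53 genes of at least 1 CPM were more than 4-fold above the highest of the other 10 libraries, while no other of the 66 pairs of libraries had more than 1 such gene. These 2 libraries are the only ones of the 12 whose description number no other of them carries. The most abundant gene of the block, ENSRNOG00000002911, had 527 CPM in estrus 2 and 427 CPM in post-estrus 3, 65.6 CPM in pre-estrus 7a, 50.5 CPM in post-estrus 5 and 1.10 to 22.1 CPM in the other 8. ENSRNOG00000037188 had 67.3 and 65.6 CPM in the pair and at most 8.09 CPM elsewhere. In SHR females ENSRNOG00000002911 did not exceed 59.2 CPM.

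The block also entered the stage comparisons, through estrus 2 and post-estrus 3. Its summed level was 1338 CPM in estrus 2 and 1044 CPM in post-estrus 3, 157 CPM in pre-estrus 7a, 120 CPM in post-estrus 5 and 8.48 to 66 CPM in the rest. Choosing genes by a high level in estrus 2 favours a positive difference between estrus and pre-estrus. All 53 had one with the shares, with a median log2 difference of 5.14 beside 2.92 without. The median over all 16880 genes was 0.0015. There 17 of the 53 had an unadjusted p under 0.05 with the shares and 5 without, beside 1.74 and 1.39% of all genes. In the comparisons of post-estrus with estrus and with pre-estrus, 0 and 0 did with the shares and 0 and 3 without. Over all genes these were 5.09 and 10.5% with the shares and 0.592 and 1.87% without. The median log2 differences of the block with the shares were -3.04 from estrus and 2.04 from pre-estrus. The block was chosen from these values, so it was not tested, and which cells or tissue it comes from was not tested either.

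The 12 SHR females were fitted in the same way. With the shares edgeR called 2 of 16814 genes (0.0119%) over all stages, 0 between estrus and pre-estrus, 2 between post-estrus and estrus and 1 (0.00595%) between post-estrus and pre-estrus. Without covariates it called 0, 0, 1 and 1 in that order. In the same order 381 (2.27%), 558 (3.32%), 375 (2.23%) and 433 (2.58%) had an unadjusted p under 0.05 with the shares, and 134 (0.797%), 176 (1.05%), 318 (1.89%) and 126 (0.749%) without. Their shares of ENSRNOG00000043866 ran from 13.2 to 27.7%, and their biological coefficient of variation was 0.170 with the shares and 0.247 without, under the BN-Lx values. In a fit over all 24 females, no gene of 17452 was called for a stage difference that differed between the strains with the shares (edgeR, smallest adjusted p = 1, 492 genes or 2.82% at an unadjusted p under 0.05), and DESeq2 called 0 as well. Without covariates 0 were called and 231 (1.32%) had an unadjusted p under 0.05.

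The SHR libraries took no part in choosing the named genes. ENSRNOG00000053047 ran the same way there, with 1.97 to 2.72 CPM at pre-estrus and 0.631 to 1.85 CPM at estrus in 4 libraries each, without overlap. The log2 difference was -0.79 ± 0.23 with the shares (SE, edgeR unadjusted p = 0.00445, adjusted p = 1), and a two-sided exact permutation test gave p = 0.0286, the smallest that 4 against 4 allow. This was among 13 gene and comparison pairs looked up in SHR, and the exact p is not adjusted for them. The value of ENSRNOG00000053047 at post-estrus in SHR, 1.61 to 2.35 CPM in the scaling over 28 libraries, overlapped with that at estrus, and 2 of 4 libraries lay above the highest estrus value. In that scaling it had 1.10 and 1.41 CPM in the BN-Lx males and 2.17 and 2.92 CPM in the SHR males.

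The other named genes gave mixed values in SHR. Of 13 gene and comparison pairs, 8 had the same sign in both strains with the shares. ENSRNOG00000045729 and ENSRNOG00000049504 each entered under both comparisons with post-estrus, and the share of equal signs over all genes was not computed. Besides ENSRNOG00000053047 only ENSRNOG00000045729 had an unadjusted p under 0.05, at a log2 difference between post-estrus and estrus of 0.70 ± 0.28 (SE, edgeR unadjusted p = 0.0243, adjusted p = 1, exact permutation p = 0.0571), with 0.371 to 0.828 CPM at estrus and 0.790 to 1.31 CPM at post-estrus. ENSRNOG00000020557 was at 0.001 ± 0.13 between post-estrus and pre-estrus there (SE, edgeR unadjusted p = 0.991), with overlapping groups at 6.96 to 8.93 and 7.10 to 8.82 CPM. None of these differences between the strains passed the interaction test, with edgeR adjusted p = 1 for each named gene; the smallest unadjusted p was 0.00167, for ENSRNOG00000020557.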

How the data were processed

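Total RNA of whole brains was sequenced as stranded, paired-end libraries after ribosomal RNA removal, per the labels' protocols. cutadapt and RSEM were used per the submitters' processing notes; no version, genome build or annotation is named: these are not given in the sources at hand. The deposited values are RSEM expected counts per gene, without normalization (88.2% already whole); the deposited TPM values and gene lengths (labelled other in kind) served as description. Expected counts were rounded; 92 spike-in rows were left out. The 16880 of 32623 genes passing filterByExpr (count minimum 10) were TMM-scaled and fitted with edgeR 4.0.16 (robust quasi-likelihood, R 4.3.3), with stage and with or without the centred log2 shares of both RNAs, leaving 7 or 9 residual degrees of freedom. DESeq2 1.42.0, limma 3.58.1 (voom with quality weights), other scaling, no filter, suffix or description-number terms, single shares, single suffixes and leaving out each library were alternatives; a fit on the first principal component of both shares was added after the data were seen. Standard errors come from the F statistic and are approximate. Log2 CPM for components used a prior count of 2.

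Named genes were to be those called at a mean of at least 1 CPM. As none was, they were those at that level with the smallest p in each direction. At most 2 higher and 2 lower were named per comparison, as identifiers have no symbols. For post-estrus against pre-estrus the called gene took the second place among higher genes. Members, covariates and lists were chosen with earlier results of these data known. Pairs of libraries of a stage differed by 41.3 to 678 in chi-square per degree of freedom over 18 pairs, so none was a copy. Of 13461 rows with over 1000 counts, 104 have an identical twin row and share their reads. Calculations were tested on simulated data.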

Additional observations from a re-analysis of the deposited data

Results flagged for a closer look

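Of 84 stage groups of 4 libraries examined, 7 had a highest or lowest library set apart by Dixon's criterion at the 95% level. The gap from that library to its nearest neighbour took up most of the group's range. The criterion flags about 1 in 20 groups of normally distributed values, a rate that does not hold for groups with several counts of 0. ENSRNOG00000026260 had 99.7 CPM in pre-estrus 7a, with the next value at 79.1 CPM. ENSRNOG00000045729 had 1.78 CPM in pre-estrus 3, with the next at 0.513 CPM. ENSRNOG00000020557 had 6.06 CPM in pre-estrus 3, with the next at 8.50 CPM. ENSRNOG00000047877 had 42.9 CPM in estrus 2, with the next at 10.5 CPM. ENSRNOG00000009269 had 0.193 CPM in pre-estrus 3, with the next at 0.0147 CPM. ENSRNOG00000046051 had 46.9 CPM in pre-estrus 3, with the next at 11.7 CPM, and 0.049 CPM in post-estrus 6, with the others at 0. With the others at 0, any count in post-estrus 6 would have been flagged. Pre-estrus 3 gave 4 of the 7.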

How the results depend on the processing

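Counts of called genes (adjusted p under 0.05) are given for any stage difference, estrus against pre-estrus, post-estrus against estrus and post-estrus against pre-estrus, in that order; with both shares edgeR called 0, 0, 0 and 1, and without covariates 0 each. With both shares the counts were 5, 1, 1 and 2 with no low-count filter, 2, 1, 3 and 2 with a suffix term, 9, 5, 4 and 23 with the description number as a block, 14, 3, 11 and 75 with DESeq2 and 18, 6, 11 and 15 in b37 libraries alone. They were 0 each with limma, with either share alone and with the first principal component of both shares, an alternative chosen after seeing the data. Without covariates they were 1, 2, 2 and 3 with DESeq2, 1, 0, 1 and 1 in b37 alone and 4087, 3917, 3489 and 114 in b35 alone, where post-estrus is the 1 library post-estrus 5, assumed to vary like the other stages. Leaving out 1 library at a time gave 0 to 2, 0 to 2, 0 to 1 and 0 to 116 with both shares, and 0, 0, 0 to 1 and 0 to 1 without.

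Genes called for the share of ENSRNOG00000043866 and of ENSRNOG00000058083, 4 and 2 with both in the fit, were 4 and 1 with DESeq2 size factors, 8 and 46 without the filter, 7 and 5 with the suffix term, 182 and 564 with DESeq2 and 7306 and 7773 with each share alone, and ranged from 1 to 115 and from 0 to 781 with 1 library left out.

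These signs turned: the log2 difference of ENSRNOG00000049504 between post-estrus and estrus was 0.28 with ENSRNOG00000058083 as the only share, and without covariates -1.39 with the replicate block, -0.84 in b37 alone and -0.20 to 1.01 with 1 library left out. Without covariates, the description-number block gave -0.037 for ENSRNOG00000026260 (estrus against pre-estrus) and -0.0028 for ENSRNOG00000009269 (post-estrus against pre-estrus), and b35 alone gave -0.14 for ENSRNOG00000026260, -0.30 for ENSRNOG00000013304 and 0.11 for ENSRNOG00000050193, all between estrus and pre-estrus. The log2 share difference of ENSRNOG00000043866 between post-estrus and pre-estrus was 0.068 in b35, 0.0047 in b37 and -0.16 to 0.064 with 1 library left out; in b37 it was 0.13 between estrus and pre-estrus and -0.12 between post-estrus and estrus. That of ENSRNOG00000058083 was -0.012 between post-estrus and pre-estrus in b35, -0.45 between estrus and pre-estrus and 0.84 between post-estrus and estrus in b37, and -0.42 to 0.31 between post-estrus and estrus with 1 library left out. The cause was not tested.

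Replicate numbers 3, 4 and 5 are each shared by 2 stages, and deviations of their libraries correlated at -0.440, 0.0703 and -0.432. All 48 pairs of libraries of different stages ran from -0.522 to 0.562. These values cannot decide whether the numbers pair rats, and no pairing was assumed in the main fits. With a replicate block and no covariates 0 genes were called in each comparison, and 176, 64, 163 and 194 had an unadjusted p under 0.05. A replicate block together with both shares left no residual degrees of freedom and was not run. Precision is limited by 4 libraries a stage and, with both shares, by correlated covariates: 91.5% of genes of at least 1 CPM had a 95% interval within 2-fold with both shares between estrus and pre-estrus, against 78.4% between post-estrus and estrus.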
